A study of Mus musculus with 12 samples.

Results

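The collagen gene family was examined in prefrontal cortex after Ttr, the gene of the thyroid hormone and retinol carrier transthyretin, had been overexpressed or targeted with a hairpin by adeno-associated virus (AAV, a gene delivery vector). Members were all genes whose symbol reads Col, a number, a and a number, with at least 10 counts summed over the 12 libraries. They number 44 of the 55401 gene identifiers in the table, and all 44 symbols of that form reached the minimum. The mice were C57BL/6J males of 14 weeks, and both hemispheres had been injected in the dorsomedial prefrontal cortex 4 weeks earlier. The Ttr-OE group (overexpression, 4 libraries) received a virus in which the CAG promoter drives GFP joined through a self-cleaving peptide to Ttr. The Ttr-KD group (knockdown, 4 libraries) received a virus with a U6-driven short hairpin RNA against Ttr and CAG-driven GFP. The ctrl group (control, 4 libraries) received a CAG-GFP virus. All 3 groups thus had surgery, AAV and GFP, and the CAG and U6 promoters are not specific to a cell type. The control virus came from another supplier than both Ttr viruses, so vector source and group cannot be told apart, and no virus with a hairpin against another sequence was used here. The labels do not say whether each library came from its own mouse, so p-values measure the spread between these libraries, part of which may be technical.

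Collagens are extracellular matrix proteins in which 3 chains wind into a triple helix. Fibrillar collagens form the tensile fibres of connective tissue, and in the brain they are found chiefly in the meninges and around larger vessels. Type IV collagens build the sheet of the basement membrane that surrounds vessels and underlies the brain surface. A smaller number of collagens are made by neurons and take part in synapse formation.

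Library totals ran from 21960429 to 33435207 counts with overexpression, from 19879629 to 34606413 with knockdown and from 22911948 to 37166146 in controls. Ttr had 2121 to 20940 counts in overexpression libraries, 3 to 47 in knockdown libraries and 14 to 200 in controls, so the counts separate overexpression from both other groups but do not check the knockdown label. Markers of excitatory cortical neurons were abundant in every library, with summed TPM (transcript abundance per gene length, on a common total for each library) of 1658 to 1922 with overexpression, 1644 to 1899 with knockdown and 1807 to 1975 in controls. Markers of striatal projection neurons differed widely within each group, with summed TPM of 166 to 967, 137 to 875 and 181 to 788 in overexpression, knockdown and control libraries.

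Collagen transcripts were scarce in all groups, and a few members made up most of them. Summed over the 44 genes, TPM was 270, 179, 204 and 241 in overexpression replicates 1 to 4, 168, 178, 218 and 171 in knockdown replicates 1 to 4, and 193, 172, 202 and 189 in control replicates 1 to 4. The ranges overlap, and overexpression replicate 1 is the highest of the 12 libraries. Over all libraries the most abundant member per length was Col6a1, a chain of the beaded microfibrils of type VI collagen, with a mean of 42.4 TPM. It was followed by Col25a1, a transmembrane collagen of neurons, with 22.0 TPM, and by Col4a2 and Col4a1, the main basement membrane chains of vessels, with 16.0 and 13.3 TPM. Col6a2 followed with 12.1 TPM, and these first 5 members held 53.2% of the family's TPM. Col4a2 was above Col4a1 in each of the 12 libraries, with a ratio of 1.04 to 1.36. Across libraries the ranges of both chains overlap with overexpression (14.9 to 18.3 TPM for Col4a2 and 12.8 to 16.7 TPM for Col4a1) and with knockdown, but not in controls (13.6 to 17.4 TPM for Col4a2 and 10.7 to 13.0 TPM for Col4a1). The classical fibrillar chains were lower, with means of 8.18 TPM for Col1a2, 2.60 TPM for Col1a1 and 1.08 TPM for Col3a1. At the low end, Col4a3, Col10a1, Col6a5, Col6a6 and Col4a4 each averaged under 0.2 TPM.

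**Figure D1:**
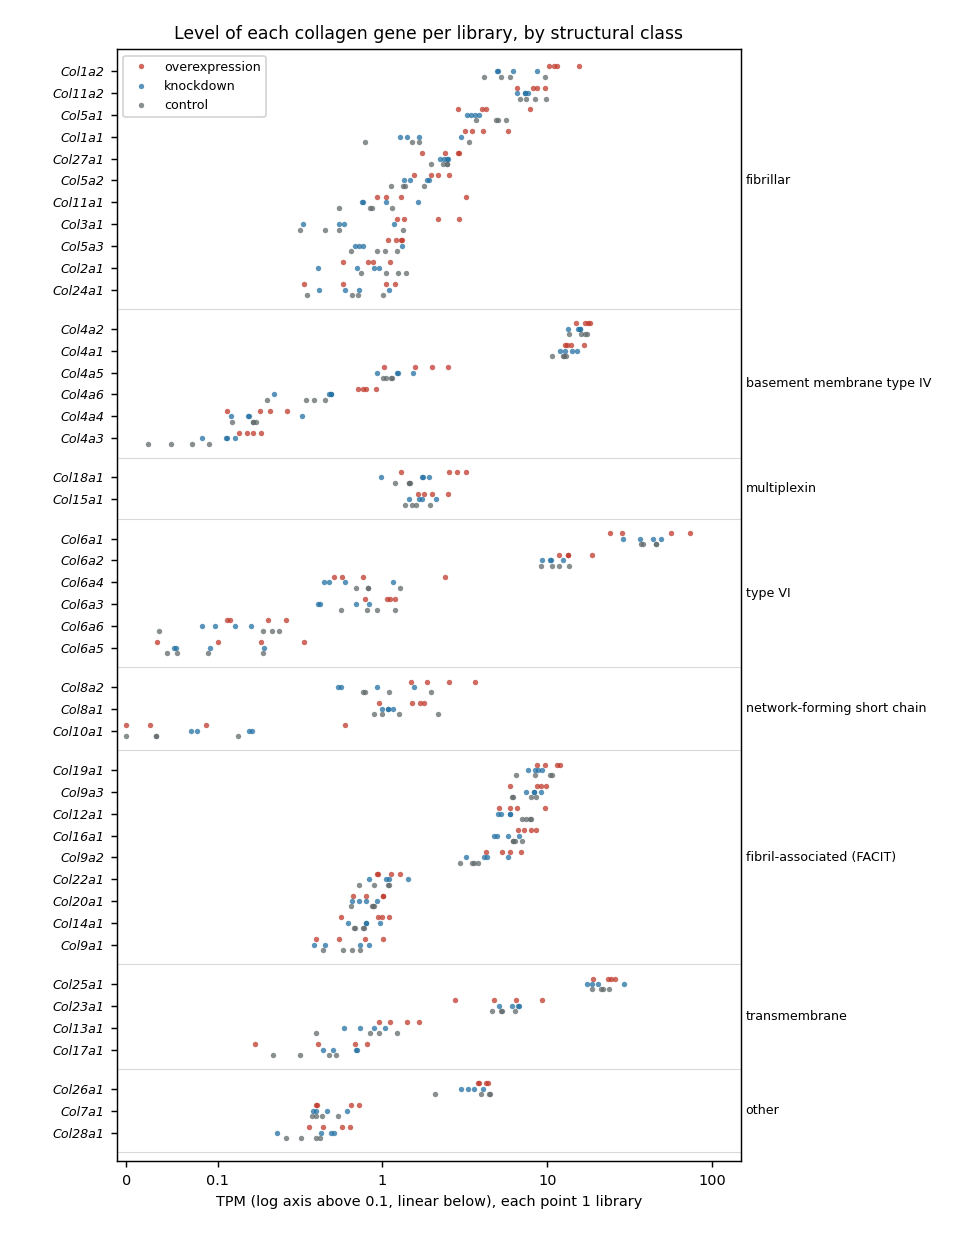
TPM of each of the 44 collagen genes in every library (points), grouped by structural class, with overexpression in red, knockdown in blue and control in grey. Col6a1, Col25a1, Col4a2 and Col4a1 lie over 10 TPM in all libraries, and the points of Col1a2, Col4a6 and Col4a3 from overexpression libraries lie to the right of all control points.

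To show how the starts of these genes differ in base composition, the 250 bases before the RefSeq start site (GRCm38.p6) are printed for both fibrillar genes with the smallest p-values below, for Col4a6 and for the neuronal Col25a1. Capitals mark 3 motifs, searched on both strands. The first is TATAAA, the core of a TATA box. The second is CCAAT, the core bound by factors such as NF-Y. The third is GGGCGG, a GC box. Col1a2 lies on the plus strand with its window at chr6:4505368-4505617, and GENCODE places the gene's first base further upstream. Col3a1 lies on the plus strand at chr1:45311288-45311537, Col4a6 on the minus strand at chrX:141474077-141474326 and Col25a1 on the plus strand at chr3:130180595-130180844. GENCODE places the first base of Col25a1 far upstream, at 130131501, so its window lies inside the gene as GENCODE draws it.
Col1a2: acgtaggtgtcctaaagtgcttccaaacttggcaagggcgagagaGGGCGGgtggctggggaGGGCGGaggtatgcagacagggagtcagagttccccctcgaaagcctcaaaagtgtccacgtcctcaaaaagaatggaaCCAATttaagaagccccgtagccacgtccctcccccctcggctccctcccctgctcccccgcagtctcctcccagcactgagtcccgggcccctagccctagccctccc
Col3a1: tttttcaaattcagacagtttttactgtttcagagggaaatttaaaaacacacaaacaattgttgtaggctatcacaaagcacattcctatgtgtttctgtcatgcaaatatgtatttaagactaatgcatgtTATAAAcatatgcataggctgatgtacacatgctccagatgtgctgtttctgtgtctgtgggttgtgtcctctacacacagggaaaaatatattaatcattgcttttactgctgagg
Col4a6: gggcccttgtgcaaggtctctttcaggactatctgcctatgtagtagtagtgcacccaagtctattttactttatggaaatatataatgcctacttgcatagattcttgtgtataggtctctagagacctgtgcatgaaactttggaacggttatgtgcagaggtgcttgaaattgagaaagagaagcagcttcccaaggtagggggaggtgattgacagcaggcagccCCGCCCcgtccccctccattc
Col25a1: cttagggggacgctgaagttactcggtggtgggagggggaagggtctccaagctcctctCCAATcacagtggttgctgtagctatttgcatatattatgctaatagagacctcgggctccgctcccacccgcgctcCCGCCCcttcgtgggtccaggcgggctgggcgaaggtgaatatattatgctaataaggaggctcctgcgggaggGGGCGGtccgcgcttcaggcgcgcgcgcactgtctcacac
The window of Col3a1 is poor in G and C (35.2%) and holds a TATAAA whose first base is at position -117, while that of Col1a2 is 62% G and C, with a pair of GC boxes and a CCAAT. The window of Col4a6 has 47.6% G and C and 1 GC box, and that of Col25a1 has 60.4%, 2 GC boxes and 1 CCAAT. RefSeq windows were matched for 35 of the 44 members (38 windows). A TATAAA stands in 13.2% of these against 12.4% of all 32851 windows, a CCAAT in 34.2% against 33.8%, and a GC box in 57.9% against 32.7%. These are matches of letters and were not tested as binding sites. Member windows had a median of 59% G and C, against 52.4% over all windows. The part of this in the GC box share was not tested.

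In overexpression against control, most collagens had higher means with overexpression, but no member passed the edgeR test. Among the largest differences were those of type I and type III fibrillar chains and of the scarce type IV chains Col4a3 and Col4a6. The edgeR quasi-likelihood test, adjusted with Benjamini-Hochberg over 18289 genes, called 0 of the 43 members that passed the expression filter, which are all but Col10a1 (0.00547% of all genes were called), while DESeq2 called 1 and limma-voom 0. With an unadjusted p below 0.05 there were 11 members that were higher with overexpression (25.6% of 43, against 4.58% of all genes) and 0 that were lower (1.68% of all genes, and 6.26% in either direction). All 4 overexpression libraries lay above all 4 controls for 4 members (9.3%, against 1.88% of all genes) and below them for 0 (0.837% of all genes). The log2 difference was positive for 38 of the 43 and negative for 5, with a median of 0.19, whereas 51.4% of all genes were positive with a median of 0.0038. The median was 0.079 on the deposited variance-stabilised scale, which compresses low values, and 0.29 without overexpression replicate 2, and without overexpression replicate 1 the count of positive members was 32.

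Type I and type III fibrillar collagens were all higher in mean with overexpression than in both other groups. Col1a2 (ENSMUSG00000029661, chromosome 6, 4504814 to 4541544, plus strand), a chain of type I collagen, had 22.2, 21.8, 32.2 and 23.2 CPM (counts scaled to a common library size with edgeR's TMM factors, not per length) in overexpression replicates 1 to 4. It had 10.6, 10.4, 17.8 and 13.9 CPM with knockdown and 12.6, 11.3, 20.3 and 8.72 CPM in controls. Every overexpression library was above every other library, and replicate 3 was the highest of each group. The log2 difference was 0.89 ± 0.24 (SE, edgeR adjusted p = 0.567) against control and 0.91 ± 0.24 (edgeR adjusted p = 0.855) against knockdown. Col1a1, the partner chain, chosen after its values were seen, had 7.08, 8.19, 13.4 and 9.24 CPM with overexpression, 3.01, 3.24, 6.79 and 4.13 CPM with knockdown and 3.60, 4.04, 7.81 and 1.82 CPM in controls. Its overexpression libraries lay above all knockdown libraries but overlapped with control replicate 3, and the log2 difference against control was 1.10 ± 0.36 (edgeR adjusted p = 0.626). Col3a1 (ENSMUSG00000026043, chromosome 1, 45311538 to 45349706, plus strand), the chain of type III collagen and a ligand of the receptor Adgrg1 in the developing mouse cortex, had 2.84, 2.69, 6.30 and 4.62 CPM with overexpression, 0.728, 1.26, 2.51 and 1.28 CPM with knockdown and 0.994, 1.23, 2.92 and 0.694 CPM in controls. Again replicate 3 was the highest in each group, and only that control overlapped with overexpression. The log2 difference of Col3a1 was 1.43 ± 0.44 (edgeR adjusted p = 0.626) against control, and 2.06 without control replicate 3. On the log2(TPM + 1) scale and the deposited variance-stabilised scale, which compress low values, the smallest difference of Col3a1 was 0.49.

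The other fibrillar chains were less uniform. Of the 11 fibrillar genes 8 were positive against control (51.4% of all genes were), 5 with an unadjusted p below 0.05 (4.58% of all genes were higher at that p). The median log2 difference was 0.30, or 0.16 without control replicate 2, 0.19 on log2(TPM + 1) and 0.10 on the variance-stabilised scale. Col5a2, a chain of the type V collagen that starts fibrils, differed by 0.49 ± 0.17 (edgeR adjusted p = 0.662) and Col11a1 by 0.85 ± 0.38 (edgeR adjusted p = 0.792). Col11a1 had 9.37 CPM in overexpression replicate 4 and 2.76 to 3.91 CPM in the other overexpression libraries, against 1.70 to 3.44 CPM in controls. Col5a1, Col11a2 and Col27a1 differed by -0.069 ± 0.22, -0.031 ± 0.13 and 0.047 ± 0.13. Col2a1, the cartilage collagen, pointed the other way at -0.43 ± 0.26 (edgeR adjusted p = 0.844). Summed over the class, TPM was 41.7, 31.5, 44.9 and 42.7 with overexpression, 23.2, 26.1, 33.0 and 25.2 with knockdown and 28.2, 27.3, 34.3 and 26.1 in controls, where overexpression replicate 2 lay below knockdown replicate 3 and control replicate 3.

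Type IV collagens split by chain. The abundant vascular chains stayed within the spread between libraries. The largest differences of the class were those of scarce chains, but the scarce Col4a4 differed little. Col4a2 had 43.2, 43.3, 37.5 and 44.8 CPM with overexpression, 39.8, 33.5, 39.4 and 42.7 CPM with knockdown and 41.3, 35.9, 44.1 and 43.1 CPM in controls, a log2 difference of 0.036 ± 0.085 between overexpression and control. Its head-to-head neighbour Col4a1 differed by 0.16 ± 0.097 in the same comparison (edgeR adjusted p = 0.844). Col4a6 (ENSMUSG00000031273, chromosome X, 141165403 to 141474076, minus strand), a chain of smooth muscle and epithelial basement membranes, had 1.92, 1.86, 2.36 and 2.00 CPM with overexpression, 0.582, 1.26, 1.26 and 1.33 CPM with knockdown and 1.20, 0.934, 1.01 and 0.521 CPM in controls. All overexpression libraries lay above all others. The log2 difference of Col4a6 was 1.14 ± 0.26 against control (edgeR adjusted p = 0.491), and it was the member that DESeq2 called (1.13, DESeq2 adjusted p = 0.0349). Against knockdown it was 0.86 ± 0.25 (edgeR adjusted p = 0.855). Col4a3, a chain best known from the kidney filter, was the rarest member by TPM and had 3 to 17 counts per library. It had 0.488, 0.459, 0.609 and 0.533 CPM with overexpression, 0.437, 0.277, 0.371 and 0.408 CPM with knockdown and 0.249, 0.170, 0.0819 and 0.304 CPM in controls. Overexpression libraries lay above all others here too, with a log2 difference of 1.43 ± 0.33 against control (edgeR adjusted p = 0.522), and 5.65% of its exon bases overlap with an antisense gene. On the compressed scales with low values named above, the smallest difference of Col4a3 was 0.13 and that of Col4a6 0.29. Col4a5, which pairs with Col4a6, differed by 0.65 ± 0.22 (edgeR adjusted p = 0.662), and Col4a4 by 0.22 ± 0.33. The class median was 0.44 with 6 of 6 positive, and 0.16 on log2(TPM + 1).

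Neuronal collagens overlapped between all groups. The list held Col25a1, Col19a1, Col23a1 and Col24a1, of which Col24a1 is also a fibrillar member. Col25a1 had 65.0, 62.2, 49.2 and 61.8 CPM with overexpression, 50.5, 45.5, 75.8 and 57.1 CPM with knockdown and 58.4, 58.3, 62.8 and 49.3 CPM in controls. Its 3 groups overlap fully, with a log2 difference of 0.057 ± 0.14 between overexpression and control and 0.0023 ± 0.14 between knockdown and control. Col19a1, which interneurons make in mice, had 18.2, 20.2, 15.9 and 14.0 CPM with overexpression, 13.0, 13.9, 15.2 and 15.6 CPM with knockdown and 17.6, 11.3, 17.9 and 14.2 CPM in controls. The groups overlap, and the log2 difference was 0.16 ± 0.14 between overexpression and control (edgeR adjusted p = 0.878). Col23a1, another transmembrane collagen, varied most in overexpression libraries, with 6.18 to 19.99 CPM there, 12.0 to 14.9 CPM with knockdown and 10.3 to 14.2 CPM in controls. The list's median log2 difference was 0.11 against control for overexpression and 0.030 for knockdown. It was -0.0095 for overexpression without replicate 1 of that group, and -0.068 for knockdown without control replicate 2. There were 0 members at an unadjusted p below 0.05 in any of the 3 comparisons. Of all genes 6.26% passed in overexpression against control, 5.68% in knockdown against control and 5.1% in overexpression against knockdown. Summed TPM of the list was 33.6 to 47.5 with overexpression, 33.2 to 46.0 with knockdown and 33.4 to 39.9 in controls. Markers of interneurons had summed TPM of 1322 to 1543, 1272 to 1596 and 1375 to 1470.5 in the same order of groups.

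**Figure D2:**
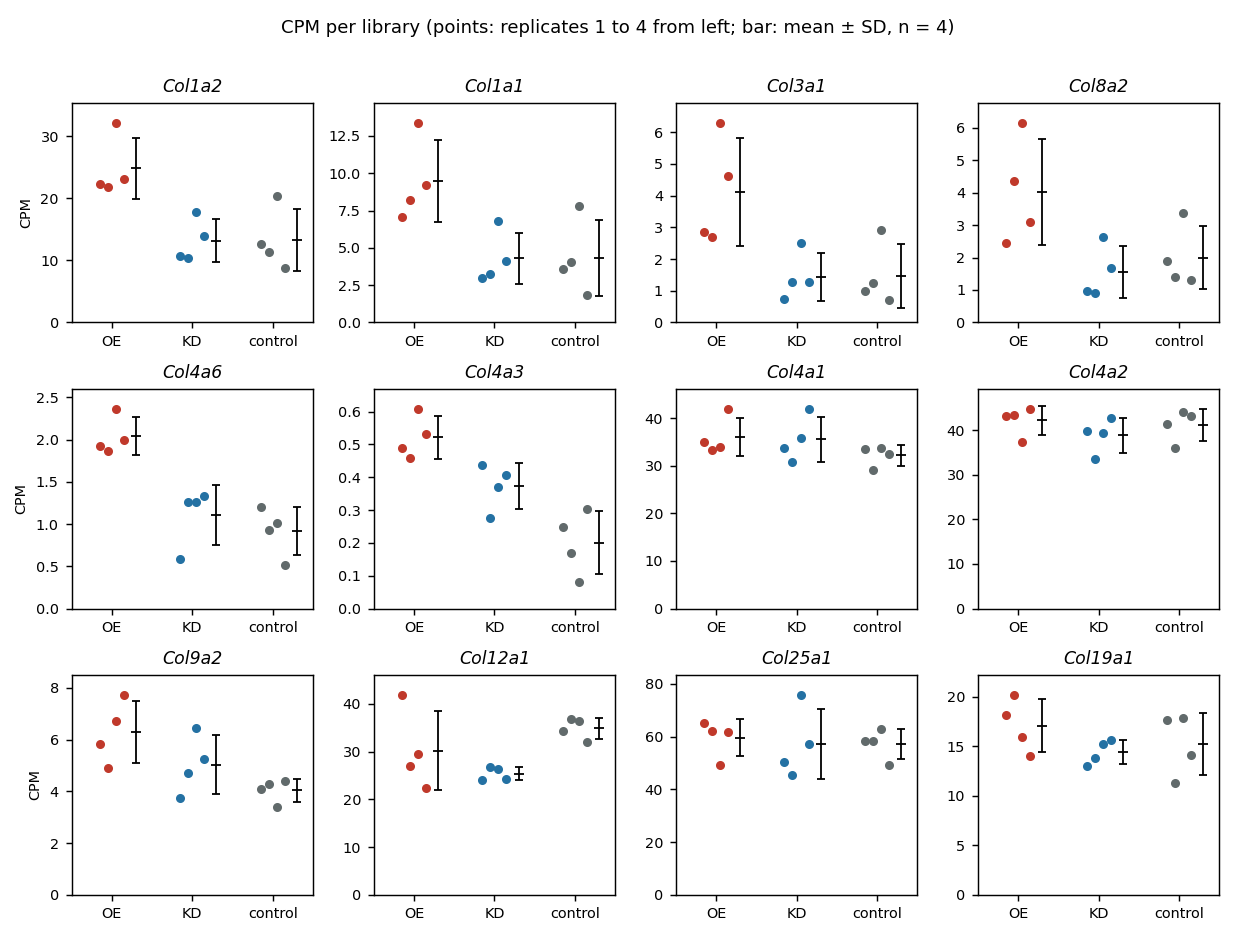
CPM of 12 collagen genes in each library, with points for replicates 1 to 4 and a bar for the mean ± SD (n = 4) of overexpression (OE, red), knockdown (KD, blue) and control (grey). Overexpression points of Col1a2, Col4a6 and Col4a3 lie above all other points, whereas the groups overlap for Col4a1, Col4a2, Col25a1 and Col19a1.

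Most members of the remaining classes were also higher in mean with overexpression than in controls. Col9a2, a chain of the type IX collagen that decorates type II fibrils, had 5.83, 4.89, 6.73 and 7.73 CPM with overexpression, 3.74, 4.70, 6.45 and 5.26 CPM with knockdown and 4.10, 4.29, 3.39 and 4.38 CPM in controls. Overexpression lay above control in all libraries, with a log2 difference of 0.64 ± 0.17 (edgeR adjusted p = 0.567), while knockdown overlapped with both. Col8a2, a network-forming chain known from corneal basement membrane, had 2.44, 4.37, 6.16 and 3.11 CPM with overexpression, 0.971, 0.909, 2.62 and 1.68 CPM with knockdown and 1.91, 1.40, 3.39 and 1.30 CPM in controls. Replicate 3 was the highest of each group again, and the log2 difference was 0.98 ± 0.38 against control (edgeR adjusted p = 0.749). Col18a1, the basement membrane collagen whose end fragment is endostatin, had 4.82, 2.60, 5.59 and 6.17 CPM with overexpression, 1.99, 3.40, 3.74 and 3.72 CPM with knockdown and 2.98, 2.97, 2.89 and 2.39 CPM in controls. Overexpression replicate 2 lay within the controls, and the log2 difference of Col18a1 was 0.76 ± 0.25 (edgeR adjusted p = 0.626). Col6a1 had 113, 38.8, 45.1 and 88.4 CPM with overexpression, 60.2, 70.2, 77.4 and 49.4 CPM with knockdown and 75.0, 61.9, 61.5 and 73.8 CPM in controls. Its spread was widest in the overexpression group, whose libraries lay on both sides of the controls, with a log2 difference of 0.070 ± 0.28. Of the 9 fibril-associated genes 8 were positive against control, from -0.21 to 0.64, and of the 6 type VI genes 5, from -0.013 to 0.74. All 4 transmembrane collagens (0.056 to 0.54), both multiplexins (0.25 to 0.76) and both measured network-forming chains (0.11 to 0.98) were positive, as were all 3 members of no class (0.074 to 0.47). Col26a1, the most abundant of these 3, had 4.61, 4.25, 4.62 and 4.04 CPM with overexpression, 4.03, 3.24, 4.36 and 3.88 CPM with knockdown and 4.43, 2.38, 4.89 and 4.90 CPM in controls, groups that overlap.

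In knockdown against control, collagens showed no common direction, and the member with the smallest p-value was lower with knockdown. EdgeR, DESeq2 and limma-voom each called 0 members (0.00547% of all genes with edgeR). With an unadjusted edgeR p below 0.05 there was 1 higher member (2.33%, against 3.85% of all genes), Col4a3, and 2 lower ones (4.65%, against 1.83% of all genes), Col12a1 and Col6a3, while 5.68% of all genes passed in either direction. Groups did not overlap for 0 higher members (2.78% of all genes) and 2 lower ones (4.65%, against 1.33% of all genes). The log2 difference was positive for 21 members and negative for 22, with a median of -0.011, whereas 51.8% of all genes were positive. Col12a1, a fibril-associated collagen, had 24.1, 26.8, 26.4 and 24.2 CPM with knockdown against 34.3, 36.9, 36.3 and 32.0 CPM in controls. All knockdown libraries lay below all controls, and overexpression libraries, with 41.9, 27.0, 29.5 and 22.4 CPM, spanned both groups. The log2 difference between knockdown and control was -0.46 ± 0.14 (edgeR adjusted p = 0.668), and it lay between -0.50 and -0.43 when each library was left out in turn. Col5a1 was the other member whose groups did not overlap, with 11.0 to 12.6 CPM with knockdown against 12.7 to 18.8 CPM in controls (-0.44 ± 0.23). Col6a3, a long chain of type VI collagen, had 1.5, 2.41, 2.88 and 1.53 CPM with knockdown against 2.90, 4.42, 3.28 and 2.00 CPM in controls, which overlap (-0.57 ± 0.25, edgeR adjusted p = 0.863). Col2a1 had 1.80, 1.38, 1.85 and 0.867 CPM with knockdown against 2.15, 2.89, 1.47 and 2.47 CPM in controls (-0.57 ± 0.27, edgeR adjusted p = 0.878), and Col16a1 differed by -0.22 ± 0.11. For Col4a3 the difference was 0.94 ± 0.35 (edgeR adjusted p = 0.83). Type I and type III chains had values close to 0, at -0.015 ± 0.24 for Col1a2, -0.015 ± 0.38 for Col1a1 and -0.021 ± 0.47 for Col3a1. The class medians were -0.015 for fibrillar and 0.22 for type IV collagens. Type VI had 5 of 6 genes negative, with a median of -0.25. The fibrillar median was 0.076 without control replicate 3 and -0.21 without knockdown replicate 3, and 0.039 with limma-voom. This comparison shares its 4 control libraries with that of overexpression and control.

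Set directly against knockdown, overexpression again had higher collagen means. EdgeR called 0 members (0.00547% of all genes), as did DESeq2 and limma-voom. There were 9 members with an unadjusted p below 0.05 that were higher with overexpression (20.9%, against 2.78% of all genes) and 0 that were lower (2.32% of all genes, and 5.1% in either direction). Without overexpression replicate 2 there were 14. Groups did not overlap for 6 members, all higher (14%, against 1.23% of all genes, and 0 lower against 1.14% of all genes), namely Col1a1, Col1a2, Col3a1, Col4a3, Col4a6 and Col16a1. Col16a1, a fibril-associated collagen, had 16.7, 13.6, 14.5 and 15.7 CPM with overexpression, 9.80, 9.96, 13.5 and 12.6 CPM with knockdown and 13.2, 13.1, 14.3 and 12.7 CPM in controls. Its log2 difference between overexpression and knockdown was 0.40 ± 0.11 (edgeR adjusted p = 0.855), and controls overlapped with both groups. That of Col3a1 was 1.45 ± 0.44 (edgeR adjusted p = 0.935), that of Col1a1 1.12 ± 0.37 (edgeR adjusted p = 0.967) and that of Col8a2 1.34 ± 0.40 (edgeR adjusted p = 0.855). The median over the 43 members was 0.25 with 37 positive, beside a median of 0.0002 and 50.1% positive over all genes. It was 0.15 without overexpression replicate 1 and 0.095 on the variance-stabilised scale. The class medians were 0.37 for fibrillar, 0.29 for type IV and 0.076 for neuronal collagens, and all 6 type VI genes were positive with a median of 0.55. The neuronal median was -0.058 without overexpression replicate 4. Both comparisons with overexpression share those 4 libraries.

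**Figure D3:**
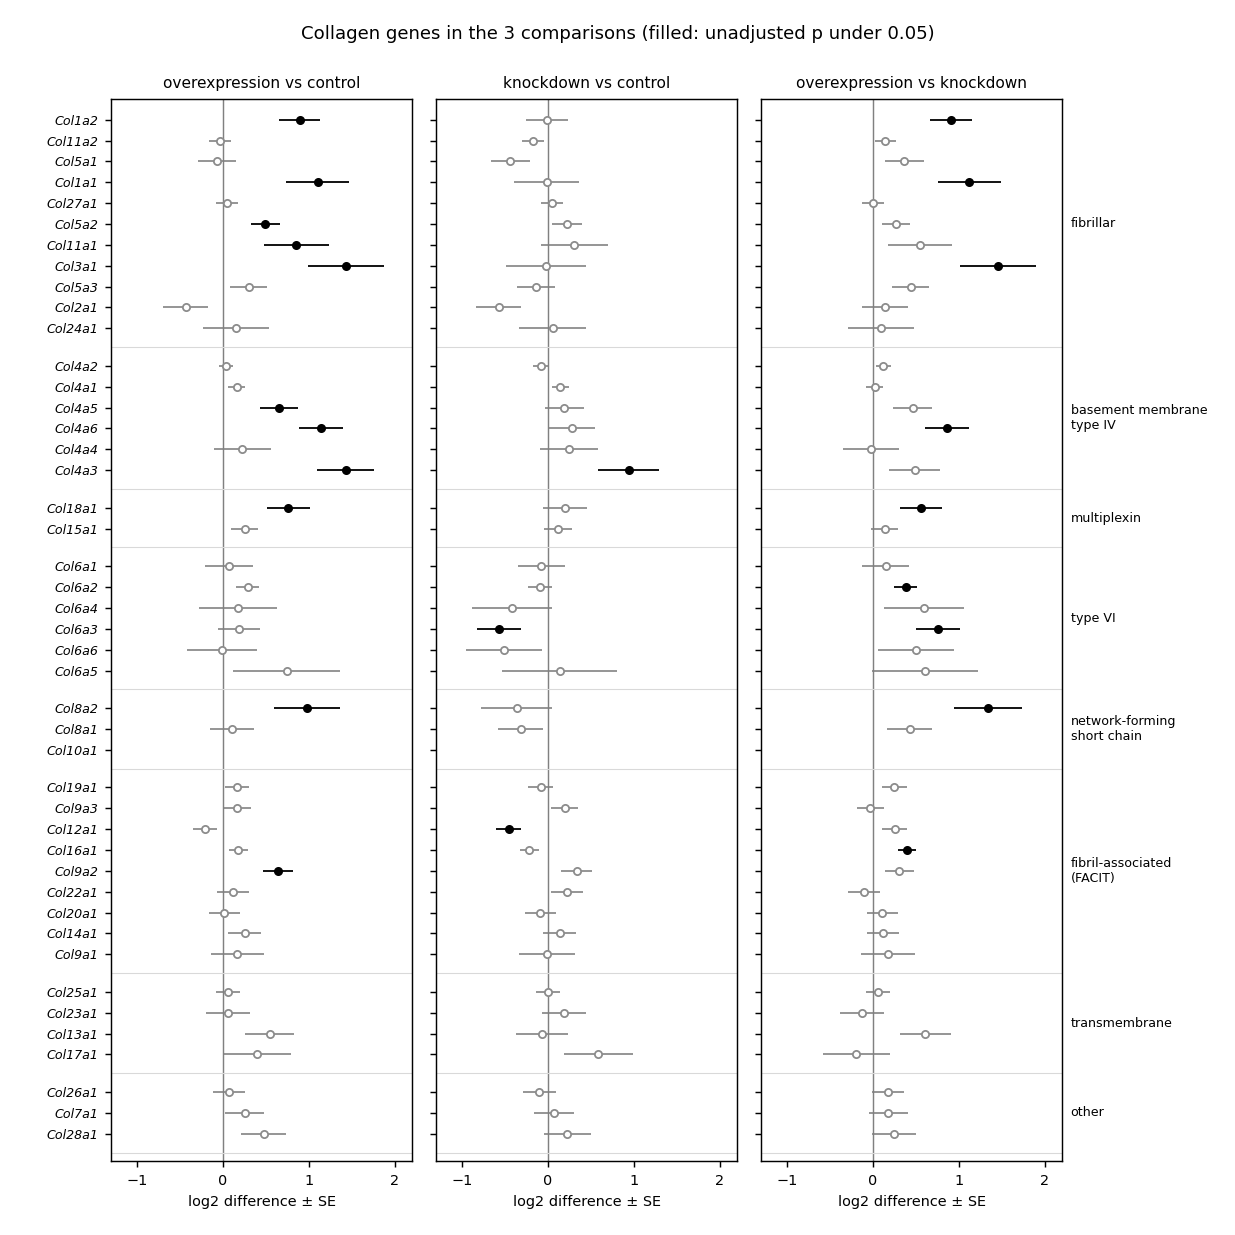
Log2 difference ± SE of each of the 43 tested collagen genes in the 3 comparisons, grouped by class, with filled points for an unadjusted p below 0.05 and open points otherwise. Filled points lie to the right of 0 in both comparisons with overexpression (11 and 9 members), and 0 members passed after adjustment in edgeR.

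Genes of the same pathway, from lists of enzymes, receptors and matrix partners, had higher means with overexpression as well, and edgeR passed 0 of them in any comparison. Of 21 partners of fibrils in the matrix 20 were positive against control, 14 of them with an unadjusted p below 0.05 and 0 lower, with a median of 0.65. Over all genes 51.4% were positive, and 4.58% were higher and 1.68% lower at that p, which is also the background of the other lists in this comparison. Among them Fmod, which binds collagen fibrils, averaged 21.5 ± 5.99 CPM (SD, n = 4) with overexpression and 5.93 ± 4.22 CPM in controls, and Tnxb, a tenascin, 4.03 ± 0.615 CPM and 2.41 ± 0.432 CPM. Bgn, a small proteoglycan, averaged 18.1 ± 4.76 CPM with overexpression and 9.27 ± 3.35 CPM in controls, with ranges that overlap. With knockdown the means were 9.24 CPM for Fmod, 2.58 CPM for Tnxb and 10.2 CPM for Bgn. Of 15 partners in the basement membrane all 15 were positive, 8 with an unadjusted p below 0.05, with a median of 0.30. The laminin chain Lama1 averaged 3.36 ± 0.767 CPM with overexpression and 1.82 ± 0.299 CPM in controls, and Lamb2 27.3 ± 3.66 CPM and 20.9 ± 1.37 CPM. The laminin chain Lamc3 averaged 5.69 ± 1.31 CPM with overexpression and 3.75 ± 0.541 CPM in controls, with ranges that overlap. With knockdown the means were 2.24 CPM for Lama1, 21.5 CPM for Lamb2 and 4.37 CPM for Lamc3.

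Genes that process collagen had a smaller median difference than its matrix partners. Of 32 measured ones 25 were positive against control, 6 with an unadjusted p below 0.05 and 0 lower, and the median was 0.12. Pcolce, which speeds the trimming of procollagen, averaged 7.26 ± 2.05 CPM with overexpression and 2.88 ± 1.51 CPM in controls. The crosslinking enzyme Loxl1 had 2.95 ± 0.773 CPM with overexpression and 1.77 ± 0.575 CPM in controls, and Crtap, a subunit of a prolyl hydroxylase complex, 4.51 ± 0.373 CPM and 3.55 ± 0.430 CPM. Of 9 measured receptors 7 were positive, 4 with an unadjusted p below 0.05, with a median of 0.36. They included the integrin chain Itga1 with 11.6 ± 1.01 CPM against 9.03 ± 1.37 CPM, the receptor kinase Ddr2 with 15.9 ± 2.63 CPM against 10.3 ± 2.71 CPM and the integrin chain Itga10 with 2.01 ± 0.707 CPM against 1.30 ± 0.228 CPM in controls. Knockdown libraries averaged 11.3 ± 1.26 CPM for Itga1, close to overexpression, 12.0 ± 3.38 CPM for Ddr2 and 1.44 ± 0.432 CPM for Itga10. In knockdown against control, where 51.8% of all genes were positive, 18 of 21 fibril partners were, with a median of 0.19. Of these, 3 had an unadjusted p below 0.05, against 5.68% of all genes in either direction. The same counts were 15 of 15, 0.14 and 0 for basement membrane partners, 23 of 32, 0.043 and 2 (1 higher and 1 lower) for processing genes, and 5 of 9, 0.14 and 2 for receptors. In overexpression against knockdown 5.1% of all genes passed in either direction and 50.1% were positive. There the counts were 18 of 21, 0.45 and 12 (10 higher and 2 lower) for fibril partners. They were 13 of 15, 0.16 and 3 for basement membrane partners and 28 of 32, 0.094 and 2 (1 higher and 1 lower) for processing genes. For receptors they were 8 of 9, 0.17 and 2 (1 higher and 1 lower). Genes of collagen breakdown had medians of 0.083, 0.098 and 0.053 in overexpression against control, knockdown against control and overexpression against knockdown, over 10 measured genes. In knockdown against control, the protease inhibitor Timp3 averaged 96.1 ± 17.4 CPM and 77.4 ± 6.79 CPM, Timp2 341 ± 17.2 CPM and 316 ± 5.59 CPM, and the protease Mmp2 2.28 ± 0.226 CPM and 1.73 ± 0.244 CPM. Overexpression means were also above control, with 103 ± 17.6 CPM for Timp3, 322 ± 22.4 CPM for Timp2 and 2.27 ± 0.678 CPM for Mmp2.

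Markers of fibroblasts of the meninges and vessels, which make fibrillar collagens, were as a sum highest in the same libraries. All 12 were positive in overexpression against control, 10 with an unadjusted p below 0.05 (4.58% of all genes were higher at that p and 51.4% positive), with a median of 1.09, and none was at 0 in any library. In overexpression against knockdown all 12 were positive (median 0.94, against 50.1% of all genes positive). In knockdown against control 10 were (median 0.28, against 51.8% of all genes positive). Their summed TPM was 125, 138, 202 and 165 in overexpression replicates 1 to 4, 63.5, 79.8, 113 and 87.9 with knockdown and 68.4, 57.8, 109 and 44.1 in controls. Much of this sum was Igfbp2, at 51.4 to 79.1 TPM with overexpression, 36.2 to 47.5 with knockdown and 29.1 to 45.2 in controls. Taken singly, 5 of the 12 lay above all controls with overexpression (1.88% of all genes). Above all knockdown libraries lay 3 (1.23% of all genes). EdgeR passed 0 of the 12 after adjustment in any comparison. In the sum all overexpression libraries were above all others. There replicate 3 was the highest of each group, as it was for Col1a1, Col1a2, Col3a1 and Col8a2. Most collagens did not have this order in all groups. Of the 43 tested members, replicate 3 was the highest of its group for 13 with overexpression, 21 with knockdown and 20 in controls. Of the 12 markers Dcn, Lum and Ogn also stand in the list of matrix partners. Summed TPM of 12 mural markers was 203 to 291 with overexpression, 194 to 218 with knockdown and 183 to 196 in controls, and that of 12 endothelial markers 271 to 348, 266 to 354 and 228 to 265. In overexpression against control 10 of 12 mural markers were positive, 6 with an unadjusted p below 0.05 (median 0.23). All 12 endothelial markers were positive, 5 at that p (median 0.21). All 5 astrocyte, 7 microglia and macrophage and 8 striatal neuron markers were positive too (medians 0.15, 0.19 and 0.25), as were 6 of 8 interneuron markers. All 5 oligodendrocyte and 7 of 8 excitatory neuron markers were negative. In knockdown against control, all 12 endothelial (median 0.20) and all 7 microglia and macrophage markers (median 0.20) were positive as well. So were 9 of 12 mural, 4 of 5 astrocyte, 5 of 8 striatal neuron and 6 of 8 interneuron markers. All 5 oligodendrocyte and 6 of 8 excitatory neuron markers were negative there. In overexpression against knockdown, medians were 0.026 for endothelial, -0.013 for microglia and macrophage and 0.14 for mural markers. Of the 5 choroid plexus markers that passed the expression filter, 4 were positive in overexpression against control (median 1.10, up to 1.68), 1 of them with an unadjusted p below 0.05. In knockdown against control 4 of the 5 were positive (median 0.47, up to 2.51), and in overexpression against knockdown 4 (median 0.21). Among all 8 markers of that list Otx2 was at 0 in 1 overexpression, 2 knockdown and 1 control library, and Folr1 and Kcnj13 in 1 control library each. In bulk tissue, more cells of a type and more RNA per cell cannot be told apart, and the part of these cell types in the collagen differences was not tested.

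**Figure D4:**
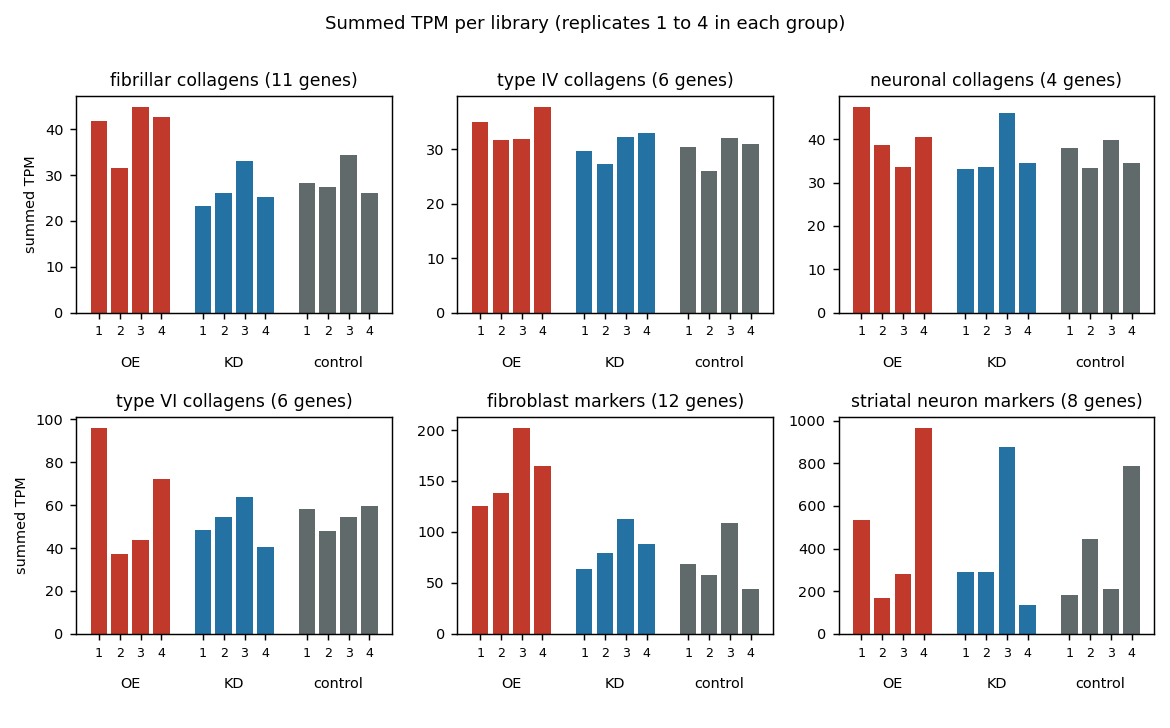
Summed TPM per library for fibrillar, type IV, neuronal and type VI collagens and for the marker lists of fibroblasts and striatal neurons, as bars for replicates 1 to 4 of overexpression (OE, red), knockdown (KD, blue) and control (grey). The fibroblast markers reach 125 to 202 with overexpression and at most 113 elsewhere, and neuronal collagens overlap between the 3 groups.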

How the data were processed

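Library preparation, per the labels' protocols, started from 500 ng of RNA, selected poly(A) transcripts, kept strand and added molecular identifiers. Per the submitters' processing notes, bcl2fastq 2.20.0.422, UMI-tools, featureCounts, DESeq2 and the build GRCm38 (mm10) were used. Which aligner, annotation and strand setting were used, and how the identifiers were, is not given in the sources used here. The authors deposited a table of raw gene counts, TPM values and variance-stabilised values on a log2 scale. The deposited TPM equalled the counts divided by a length per gene and scaled, within 0.01 on the log2 scale for 100% of values of 15172 genes.

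Symbols were found for 55141 of 55401 identifiers, and those without one held 0.00474% of counts. Coordinates are from GENCODE M21 (GRCm38), and windows before start sites from RefSeq (GRCm38.p6). Counts were tested with the edgeR 4.0.16 quasi-likelihood test in R 4.3.3 (TMM factors, default expression filter by group, 12 libraries in 1 fit of 3 group means, 18289 genes, Benjamini-Hochberg adjustment, threshold 0.05). The SE given with each edgeR log2 difference is its size divided by the square root of the test's F statistic. It restates the test and is no separate estimate of the spread. Steps were tested on simulated counts. The filter removed 1 member, Col10a1. Exons of 13 members overlap with another gene, by under 10% of exon bases in each. Alternatives used DESeq2 1.42.0, limma 3.58.1 (voom, or log2 of TPM with a pseudocount of 0.1 or 1, or the deposited log2-scale values), other scalings and filters, fits on both groups alone, a block for replicate number and each library left out. Pairs of libraries in a group differed beyond sampling noise where a value was obtained (chi-square per degree of freedom 5.37 to 28.3). Of the 18 pairs, knockdown replicates 2 and 4 and control replicates 1 and 4 gave no value. Named members were the 5 with the smallest p-values in each comparison and the most abundant of each class. Col1a1, Col4a1, Col4a4, Col4a5, Col5a2, Col11a1, Col11a2, Col23a1 and Col27a1 were named after their values were seen. In the other gene lists, the 3 genes with the smallest p-values were named, in the comparison where the list's median was farthest from 0. The members and lists were chosen with earlier results of these data known. Figures used Python 3.11.15 and matplotlib 3.10.9.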

Additional observations from a re-analysis of the deposited data

Results flagged for a closer look

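Within groups of 4 libraries, 78 sets of values (16 members and 10 class sums) were searched for a library whose gap to its nearest neighbour took up more of the group's range than Dixon's critical value, as chance gives in about 1 in 20 groups. It was found in 6. Col1a2 had 32.2 CPM in overexpression replicate 3, against 21.8 to 23.2 CPM in the other overexpression libraries (0.865 of the range). Col4a6 had 0.582 CPM in knockdown replicate 1, against 1.26 to 1.33 CPM in the other knockdown libraries (0.904). Col18a1 had 2.39 CPM in control replicate 4, against 2.89 to 2.98 CPM in the other controls (0.852). Network-forming collagens had a summed TPM of 4.27 in control replicate 3, against 1.81 to 2.02 in the other controls (0.914). Knockdown replicate 3 stood apart for transmembrane collagens, with a summed TPM of 37.7 against 25.2 to 26.9 (0.860), and for neuronal collagens, with 46.0 against 33.2 to 34.5 (0.898). Both sums hold Col25a1, which had 75.8 CPM in that library.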

How the results depend on the processing

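All 15 log2 differences named by the smallest p-values kept their direction in all 284 values under the alternatives, and 1 call changed, that of Col4a6 under DESeq2. Genes of any kind past the threshold numbered 20 with no filter, 40 with DESeq2 and 0 with limma-voom or with only both groups in overexpression against control. They numbered 22, 42 and 2 with no filter, DESeq2 and only both groups in knockdown against control, and 0 with either TPM scale, and 4 with DESeq2 and 0 with limma-voom in overexpression against knockdown. Leaving out a library gave 0 to 4, 0 to 10 (10 without knockdown replicate 4) and 0 to 2 genes in these comparisons, and 0 collagens in each. DESeq2 called 1 collagen in overexpression against control. On log2(TPM + 1) and the variance-stabilised scale the type IV median was 0.16 and 0.15 in overexpression against control, 0.071 and 0.058 in knockdown against control, and 0.11 and 0.084 in overexpression against knockdown, where the fibrillar median was 0.16 on the variance-stabilised scale. Leaving out a library gave type IV medians of 0.33 to 0.62 in overexpression against control. Members with an unadjusted p below 0.05 numbered 8 to 15 in overexpression against control, 2 to 5 in knockdown against control and 7 to 14 in overexpression against knockdown when a library was left out, and 10 to 13, 1 to 6 and 8 to 13 under the other alternatives. The neuronal median in knockdown against control was -0.0037 on the variance-stabilised scale.

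Deviations over the tested genes gave little sign that replicate numbers pair the libraries, but such correlations cannot exclude pairing. Same-numbered libraries had correlated deviations over 0.1 in 2 of 12 pairs (from -0.34 to 0.16), and 3 of 12 correlated best with their own number. With the replicate number as a block, edgeR called 1, 0 and 2 genes and 0 collagens in the 3 comparisons. In overexpression against control the block lowered the edgeR adjusted p of Col1a2 from 0.567 to 0.065. That of Col3a1 fell from 0.626 to 0.065, and those of Col4a3, Col4a6 and Col9a2 were 0.286, 0.286 and 0.371 with the block. Counts limit the rarest members, as Col4a3 rests on 3 to 17 counts per library.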

Other observations

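Chains that assemble together kept different ratios per length. The level of each ratio rests on the gene lengths behind the deposited TPM, whose annotation is not given. A fixed length per gene does not alter how a ratio differs between groups. Col1a2 had 2.97 ± 0.362 times the TPM of Col1a1 with overexpression (SD, n = 4), 3.53 ± 0.441 times with knockdown and 3.80 ± 1.09 times in controls, although the type I helix holds more Col1a1 than Col1a2 chains. The ratio of Col4a2 to Col4a1, genes that start from opposite strands with a shared stretch of 22 bases, was 1.21 ± 0.111 with overexpression, 1.12 ± 0.0682 with knockdown and 1.31 ± 0.0475 in controls. All 4 knockdown ratios (1.04 to 1.21) lay below all 4 controls (1.27 to 1.36). The same held for Col5a1 over Col5a2, with 1.96 to 2.42 in knockdown and 2.72 to 4.35 in control libraries. Overexpression lay below control without overlap for Col9a3 over Col9a2 (1.39 to 1.64 and 1.75 to 2.38) and for Col4a4 over Col4a3 (0.845 to 1.62 and 1.69 to 7.04), the last from few counts. These separations were seen among 9 ratios and were not tested. That of Col6a1 to Col6a2 ran from 2.02 to 4.22 within the overexpression group, from 2.78 to 4.76 with knockdown and from 2.82 to 4.29 in controls.

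Libraries differed across the family. Overexpression replicate 2 had the lowest CPM of its group for 25 of the 43 tested members, knockdown replicate 3 the highest of its group for 21 and control replicate 3 the highest of its group for 20. Overexpression replicate 1 led its group for Col6a1 and also for Col5a1, with 24.9 CPM against 9.60 to 14.0 CPM in the other overexpression libraries, and for Col6a4, with 6.71 against 1.47 to 2.13 CPM. These were picked after their values were seen.

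Col10a1, the collagen of hypertrophic cartilage, passed the count minimum with 42 counts in all. Overexpression replicates 1 to 4 gave 1, 0, 3 and 16 of them, knockdown replicates 2, 5, 3 and 4, and controls 1, 1, 6 and 0. A count of 0 allows up to 0.0917 CPM in overexpression replicate 2 and 0.130 CPM in control replicate 4, for counting error only.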
